A study of Mus musculus with 24 samples.

Results

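Interstitial and alveolar macrophages of the mouse lung were compared after PBS, the vehicle control, in 6 of the 24 libraries of a bulk RNA-seq series on sorted lung macrophages. The interstitial side was 3 libraries of CD11b+ SiglecF- cells, called IMs below, from wild-type C57BL/6J mice at day 7 after PBS. The alveolar side was 3 libraries of EGFP+ CD11b- SiglecF+ cells, called AMs below, from Spp1-EGFP knock-in reporter mice, also at day 7 after PBS. PBS was given into the trachea in both. The members were chosen by these labels and share 1 count table. The gate, the genotype and the EGFP sort differ together between the sides, so they cannot be told apart in any difference below. A second gate comparison, free of the last 2 differences, came from the reporter mice at day 14 after bleomycin, given at 3 µg per g to cause lung injury and fibrosis: 3 libraries of EGFP+ CD11b+ SiglecF- cells against 3 of EGFP+ CD11b- SiglecF+ cells. Libraries are numbered 1 to 3 in the labels, which do not say whether a number is a separate animal, so the p-values measure the spread between these libraries, which may be technical.

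AMs live in the airspace, where they take up and degrade surfactant lipid. They are seeded before or around birth and depend on GM-CSF and autocrine TGF-beta, which act through the lipid-sensing receptor PPAR-gamma. IMs lie in the tissue around bronchi, vessels and nerves, depend more on CSF-1, are partly replaced from blood monocytes, and are known for complement C1q, MHC class II and chemokine production. The CD11b+ SiglecF- gate defines no IM on its own, since neutrophils, monocytes and some dendritic cells also carry CD11b and lack SiglecF.

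Total counts were 15148420 to 16362415 in the IM libraries and 18227184 to 24580620 in the AM libraries. Of 15983 genes tested, 12609 (78.9%) were called at an adjusted p under 0.05 in edgeR's quasi-likelihood test. A share of 39.2% (6268 genes) was higher in IMs and 39.7% (6341 genes) was higher in AMs. At least 2-fold differences among the called genes were found in 23.9% of the tested genes in the direction of IMs (3817) and in 18.0% in the direction of AMs (2874). The 3 IM and the 3 AM values did not overlap in 80.9% of the tested genes. A called gene is therefore the usual case here, and the size of a difference says more than its call. Over all tested genes the median log2 difference, IM minus AM, was -0.01, with the 5th percentile at -2.24 and the 95th at 3.66. Levels below are in CPM (a read count divided by the depth of its library) scaled by TMM factors, as mean ± SD of 3 libraries unless all 3 are given, and positive log2 differences mean higher in IMs.

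The transcripts of the sorted proteins followed the gates. Siglecf, which encodes the sialic-acid-binding lectin used to gate AMs (ENSMUSG00000039013, chr7:43351341-43359531), was at 8.27, 12 and 12.3 CPM in the IM libraries and at 430, 412 and 406 CPM in the AM libraries. Itgam, the CD11b chain, was at 206, 217 and 231 CPM in IMs and at 8.82, 7.06 and 11.8 CPM in AMs; 68.7% of its exon bases overlap the predicted gene Gm49368 in GENCODE M21, so its reads could be split. Itgax, which encodes CD11c, was at 303 ± 13 CPM in IMs and 1739 ± 82.8 in AMs. The 2 groups were far apart in all 3 genes. Since the sort selected on SiglecF and CD11b, the first pair describes the gate and is not a finding.

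Spp1, which encodes osteopontin and drives the reporter, was at 91.8, 88.2 and 93.8 CPM in IMs and at 211, 192 and 206 CPM in the EGFP+ AMs, a log2 difference of -1.15 ± 0.0565 (SE; adjusted p = 9.07e-13). The AMs were sorted for EGFP and the IMs were not. Both levels were low beside those of cells sorted for EGFP at days 7 and 14 after bleomycin. On the scale of CPM of the total count, the EGFP+ cells after bleomycin had 4103 CPM in day 7 IMs, 5898 in day 14 IMs and 4808 in day 14 AMs.

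**Figure D1:**
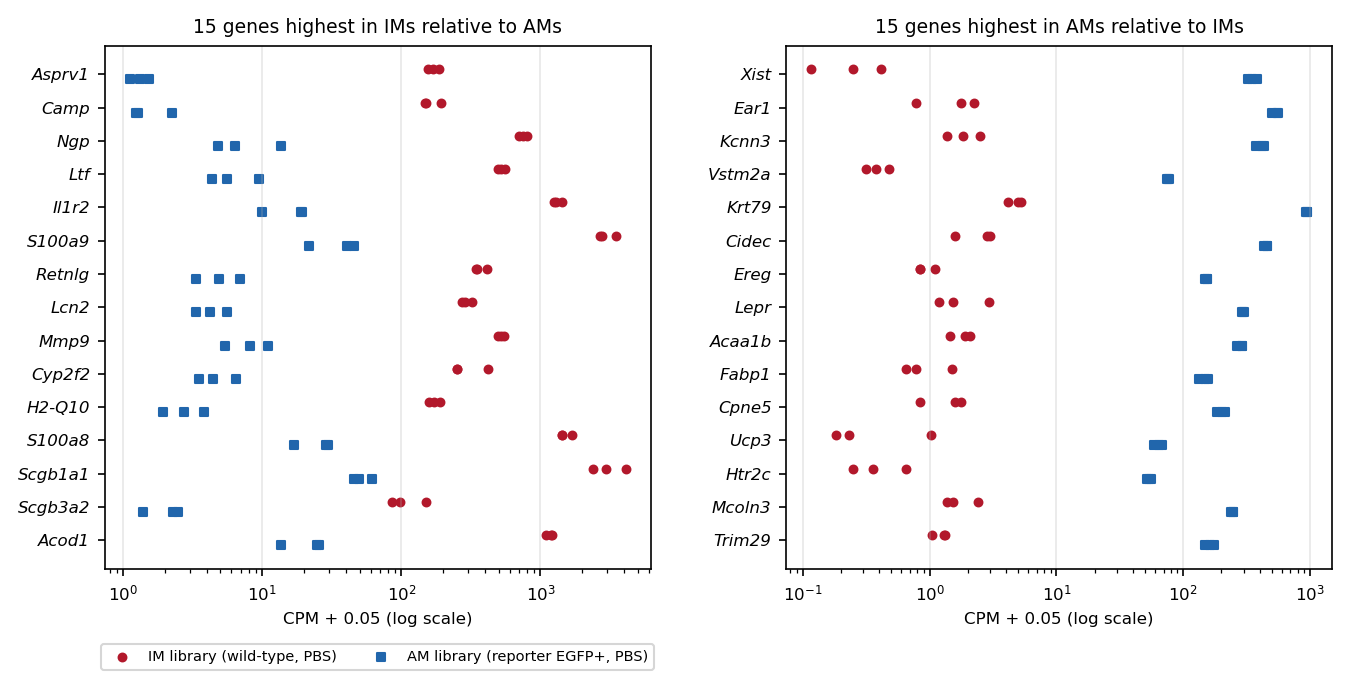
CPM + 0.05 on a log axis in each of the 3 IM libraries (red circles) and 3 AM libraries (blue squares) for the 15 genes with the largest called difference each way among those at 50 CPM or more in the higher group whose libraries did not overlap between groups, which was part of the choice. Krt79 sits between 4.11 and 5.25 CPM in IMs and between 930 and 950 CPM in AMs.

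The 15 leading AM genes, from 137-fold to 1590-fold, included Krt79, a keratin, Ear1, an eosinophil-associated ribonuclease, and the fat-handling genes Cidec (lipid droplet fusion), Fabp1 (fatty acid binding) and Acaa1b (peroxisomal thiolase). With them were the leptin receptor Lepr, the epidermal growth factor family member Ereg, the potassium channel Kcnn3, the uncoupling protein Ucp3, the lysosomal channel Mcoln3, and Vstm2a, Cpne5, Htr2c and Trim29. The 15 leading IM genes, from 55.3-fold to 134-fold, were mostly genes of granulocytes and of airway epithelium. Camp, Ngp, Ltf, Lcn2, Retnlg, S100a8, S100a9 and Mmp9 encode granule and cytosolic proteins of neutrophils, and Scgb1a1, Scgb3a2 and Cyp2f2 are products of club cells. The others were Asprv1, Il1r2, the itaconate-producing enzyme gene Acod1, and H2-Q10, an MHC class I gene with near-identical relatives. S100a9 was at 2678, 2761 and 3467 CPM in IMs and at 40.6, 21.6 and 45.5 CPM in AMs. How far these other cell types reach into the IM libraries is given with the marker lists further on.

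Xist led the AM side. It was at 0.197, 0.367 and 0.0663 CPM in IMs and at 346, 384 and 323 CPM in AMs. The Y-linked Ddx3y was at 265, 258 and 279 CPM in IMs and at 81.2, 79.4 and 79.8 CPM in AMs. Every AM library thus held both the X-inactivation transcript and Y-linked transcripts, while the IM libraries held Y-linked transcripts with almost no Xist. Sex composition differed with the groups and cannot be told apart from gate, genotype or EGFP. Its part in the autosomal differences was not tested.

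All 25 AM surface and keratin markers were higher in AMs, with a median log2 difference of -4.95 against -0.01 over all genes. Siglecf is in this list, and its direction was set by the sort. Krt79 (ENSMUSG00000061397, chr15:101929332-101940324) was at 5.25, 4.95 and 4.11 CPM in IMs and at 950, 943 and 930 CPM in AMs, a 197-fold difference (adjusted p = 1.46e-21). Car4, a membrane carbonic anhydrase, was at 6.83, 6.97 and 6.96 CPM in IMs and 314, 305 and 321 CPM in AMs. The AM libraries lay close together and far above the IM libraries in both genes. Chil3, a secreted chitinase-like protein, was at 428 ± 15.2 CPM in IMs and 12475 ± 870 in AMs (29.1-fold). Plet1, a surface protein of AMs and epithelia, differed 85.1-fold, the scavenger receptor Marco 56.1-fold, and Cidec 184-fold. Smaller differences were found for the mannose receptor Mrc1 (214 ± 58.2 CPM in IMs, 1793 ± 20.5 in AMs), the E-cadherin gene Cdh1 (-1.25) and Fabp4 (-0.59), which was the smallest of the list. Mrc1 is used for both macrophage types, and its 3 IM values were 279, 196 and 167 CPM. The Ear ribonucleases are near-identical copies and counting could split reads between them; Ear2 was at 141 CPM in IMs and 1746 CPM in AMs.

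Among 21 resident IM markers, 18 were higher in IMs, 2 were higher in AMs and 1 was not called, with a median log2 difference of 4.32. Those 18 include Mmp9, Pf4 and a further gene that also stand in the neutrophil, platelet and classical monocyte marker lists below. The 3 chains of C1q, which start the classical complement pathway, differed alike. C1qa was at 569, 375 and 406 CPM in IMs and at 13.8, 9.51 and 16.6 CPM in AMs, and C1qb and C1qc had log2 differences of 5.07 and 5.11. Apoe (ENSMUSG00000002985), the lipid carrier, was at 3664, 3002 and 3119 CPM in IMs and 159, 129 and 202 CPM in AMs, a log2 difference of 4.32 ± 0.221 (adjusted p = 3.53e-05). No IM library overlapped an AM library in either gene. The fractalkine receptor Cx3cr1 (144 ± 13.2 against 5.91 ± 2.46 CPM), the scavenger receptor Stab1 (157 against 6.81 CPM), the haemoglobin-haptoglobin scavenger receptor Cd163 (32.9 against 2.86 CPM) and the TAM receptor ligand Gas6 (36.0 against 1.38 CPM) were also higher. Markers of the perivascular LYVE1+ subset were at low levels in IMs, with Lyve1 at 5.94 CPM and Folr2 at 12.2 CPM (18.0, 10.4 and 8.35 in the 3 libraries; 63.1% of its exon bases overlap Gm10602).

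The 3 markers outside this direction were Mertk, Cd63 and Igf1. Mertk, the receptor for apoptotic cells that is used to define macrophages in the lung, was at 23.6, 14.5 and 14.4 CPM in IMs and at 471, 490 and 472 CPM in AMs, 27.4-fold higher in AMs. The tetraspanin Cd63 had a log2 difference of -0.82. Igf1 was at 35.0, 22.6 and 20.7 CPM in IMs and 26.7, 25.1 and 26.9 CPM in AMs, and the ranges overlapped (log2 difference -0.01 ± 0.183, adjusted p = 0.969). Without IM library 1, Igf1 was called higher in AMs (-0.29, adjusted p = 0.0106). Other pan-macrophage genes were present on both sides. Of the 10 on that list, which includes Mertk, 4 were higher in IMs, among them Csf1r, and 6 were higher in AMs. Adgre1, which encodes F4/80, was at 334 ± 49.6 CPM in IMs and 392 ± 13.1 in AMs, Fcgr1 (CD64) at 36.8 ± 3.29 and 52.0 ± 3.06, and the lysozyme gene Lyz2 at 8306 ± 109 and 24093 ± 552. The call for Adgre1 was lost without AM library 1 or 2 or IM library 2. It was also lost with RLE or upper quartile factors and with a stricter low-count filter. The summed level of the 10 pan-macrophage genes was 13850 to 14180 CPM in IMs and 29390 to 30570 in AMs. Lyz2 made up most of the sum on both sides, so the sum mainly follows that gene.

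**Figure D2:**
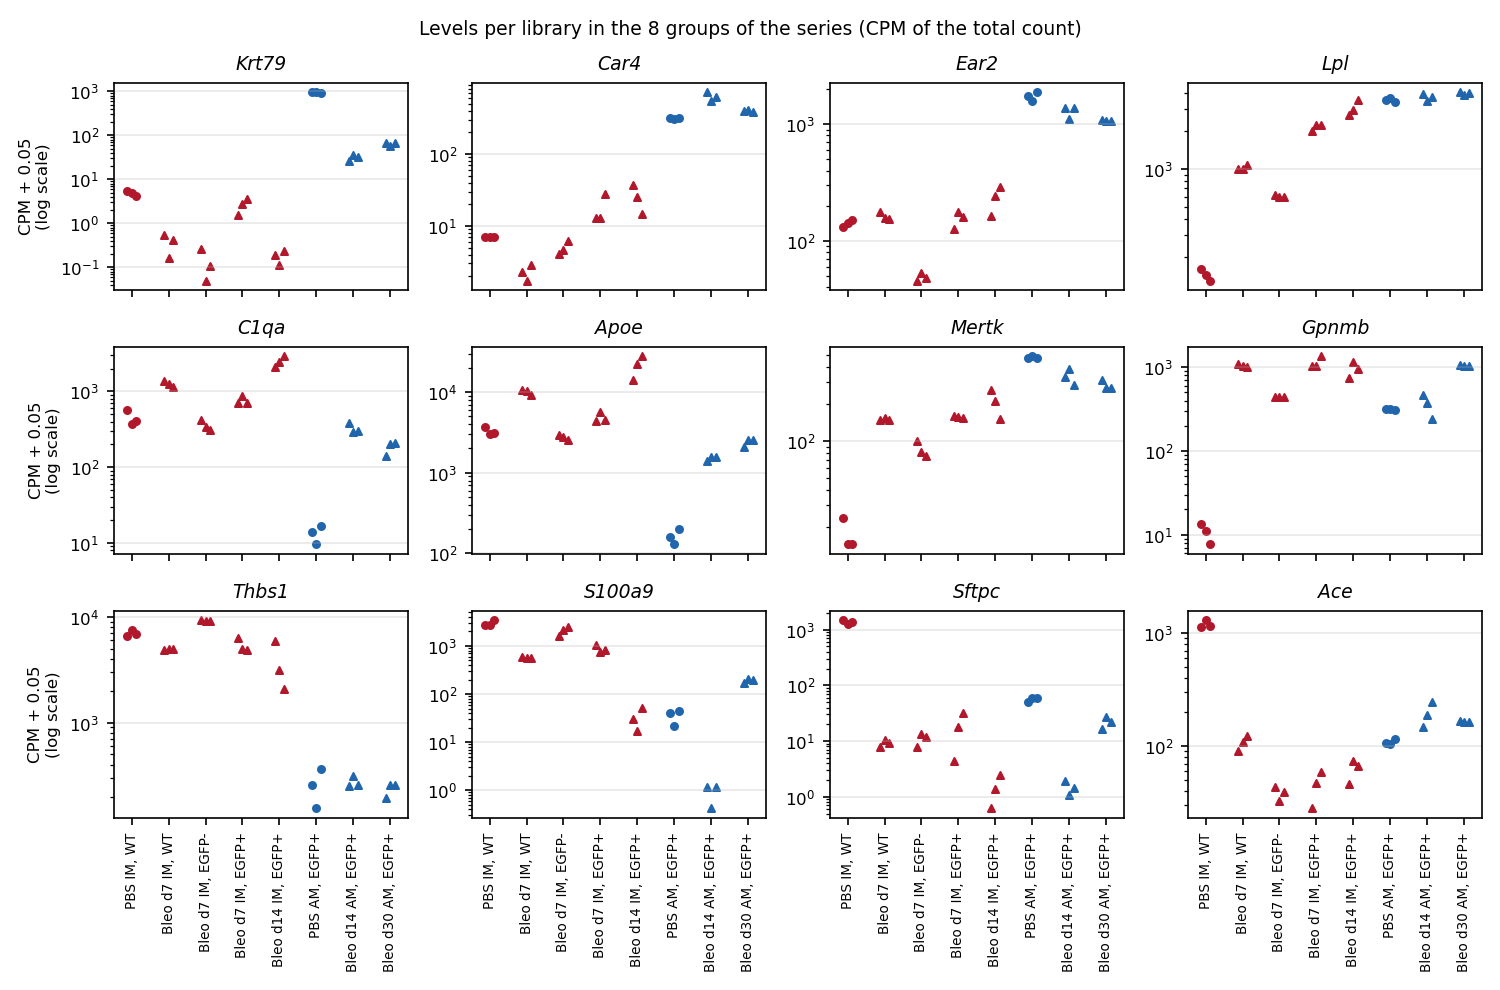
CPM of the total count plus 0.05 on a log axis in each library of the 8 groups of the series for 12 genes; red marks IM gates, blue AM gates, circles PBS and triangles bleomycin, and 3 points stand for the 3 libraries of a group. Mertk and Gpnmb are lower in the PBS IMs than in the other 7 groups, and Sftpc and Ace are higher there than in the other 7. The 2 tables hold different numbers of genes (49585 and 55487), so their annotations may differ, and no test is attached to the groups.

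Of 37 macrophage transcription factors, 24 were higher in IMs, 12 were higher in AMs and 1 was not called, with a median of 0.63. Those higher in AMs included Pparg, at 59.1, 55.6 and 71.7 CPM in IMs and 193, 180 and 194 CPM in AMs (-1.61 ± 0.0791), and its partner Rxra (-3.06). The liver X receptor gene Nr1h3 (-2.46), Cebpa (-2.76), Tcf7l2 (-2.45), Runx1 (-1.03) and Bhlhe41 (-1.83) were higher in AMs too. Bhlhe40, a relative of Bhlhe41, was at 739 and 756 CPM, with no call (adjusted p = 0.554). Tfec, of the MiT family with Mitf and Tfeb, had the largest difference, at 4.07, 3.55 and 3.31 CPM in IMs and 142, 145 and 138 CPM in AMs. Higher in IMs were Maf (2.80), which restrains self-renewal in macrophages, Klf2 (2.30), Mef2c (2.67), Irf4 (1.99), Irf5 (1.96), Irf7 (3.60) and Runx3 (3.64). Spi1, the master factor PU.1, was nearly level at 538 and 482 CPM (0.16). The call for Spi1 was lost when AM library 1 or 3 or IM library 2 or 3 was left out, and with no low-count filter.

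Csf1r, the receptor for CSF-1, was at 1442, 1476 and 1332 CPM in IMs and 371, 366 and 370 CPM in AMs (1.94 ± 0.0527), with no overlap; 15.1% of its exon bases overlap Hmgxb3 on the other strand. The beta chain of the GM-CSF receptor, Csf2rb, was at 495 ± 19.2 CPM in IMs and 834 ± 35.2 in AMs, its relative Csf2rb2 had a difference of -1.5, and the alpha chain Csf2ra one of 0.21. Csf3r, the G-CSF receptor of granulocytes, was 27.6-fold higher in IMs. The TGF-beta receptors Tgfbr1 (-1.11) and Tgfbr2 (-0.66) and the ligand gene Tgfb2 (1.19 against 17.6 CPM, -3.87) were higher in AMs. The signal transducer Smad3 (3.72) and the feedback inhibitor Smad7 (2.47) were higher in IMs, and Tgfb1 was not called (493 and 479 CPM, adjusted p = 0.481). In all, 13 of the 22 genes on this list were higher in IMs, 7 in AMs and 2 were not called.

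**Figure D3:**
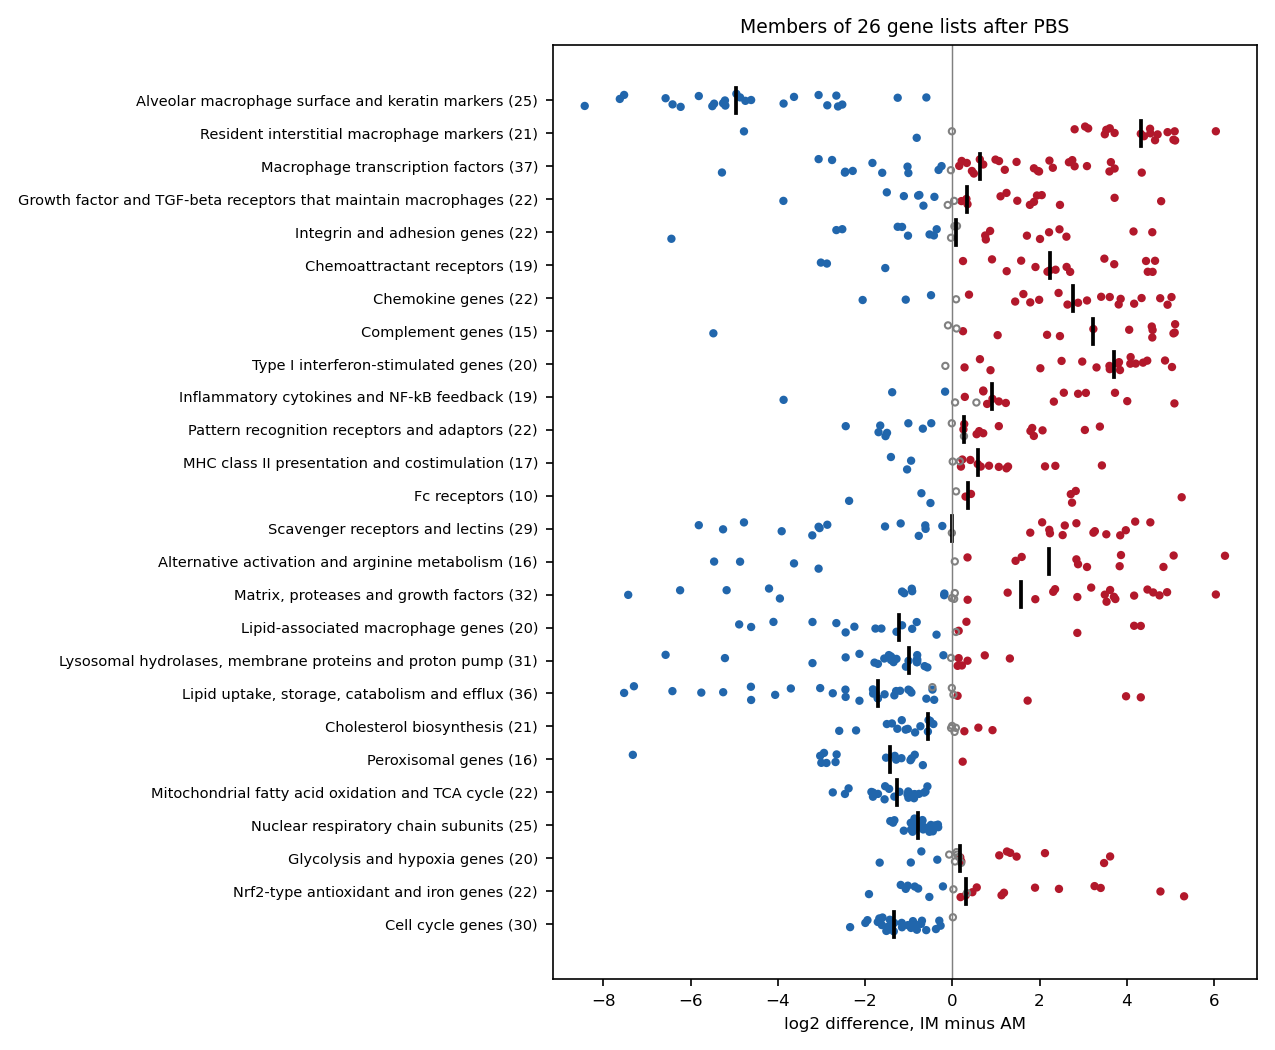
log2 difference, IM minus AM after PBS, of each tested member of 26 gene lists (number tested in brackets); red was called higher in IMs, blue called higher in AMs, open circles were not called, and the black bar is the list's median. The respiratory chain, fatty acid oxidation and cell cycle lists hold no red point, and the interferon list holds no blue point.

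Genes of lipid handling were mostly higher in AMs. Of 36 on the list, 29 were higher in AMs, 4 in IMs and 3 were not called, with a median of -1.71. Lpl, the lipoprotein lipase, was at 159, 144 and 130 CPM in IMs and 3536, 3676 and 3375 CPM in AMs. The cholesterol exporter Abcg1 (136 against 1774 CPM), the lipid droplet genes Plin2 (-1.71) and Plin1 (0.104 against 4.32 CPM), the cholesteryl ester hydrolase Nceh1 (-4.06), the acid lipase Lipa (-2.44), the lipin Lpin1 (-4.62), the pyruvate dehydrogenase kinase Pdk4 (-6.41) and Angptl4 (-5.75), an inhibitor of Lpl, were higher in AMs. The exceptions were Apoe, the triglyceride-forming enzyme gene Dgat1 (488 against 147 CPM), the cholesterol esterifying Soat2 and, by 0.12, the cholesterol carrier Npc2, whose call was lost in 5 of the 6 fits that left out 1 library, with DESeq2, with no low-count filter and with all 15 libraries in 1 fit. Cd36, the fatty acid translocase, was at 508, 526 and 498 CPM in IMs and 522, 482 and 539 CPM in AMs, and Abca1 at 307 and 301 CPM. Neither was called (adjusted p = 0.869 and 0.784). Of 21 genes of cholesterol synthesis, 14 were higher in AMs and 3 in IMs, with a median of -0.56. The other 4 were not called.

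Each of the 22 tested genes of mitochondrial fatty acid oxidation and the TCA cycle and each of the 25 nuclear-encoded respiratory chain subunits was higher in AMs, with medians of -1.27 and -0.79. Of 16 peroxisomal genes, 15 were higher in AMs (median -1.42). Hadha, of the mitochondrial trifunctional protein, was at 97.7, 103 and 100.2 CPM in IMs and 328, 329 and 321 CPM in AMs. Ndufv1, a complex I subunit, was at 43.0, 41.9 and 45.6 CPM in IMs and 95.5, 93.5 and 92.9 CPM in AMs. The respiratory chain differences were small but alike, from -1.42 (Ndufa4) to -0.32. The groups did not overlap in any of the 25, beside no overlap in 80.9% of all tested genes. The transcripts encoded by the mitochondrial genome went the other way: 9 of 12 were higher in IMs, none was called higher in AMs, and their summed level was 14050 to 15200 CPM in IMs and 10730 to 11640 in AMs. The 3 not called, mt-Co2 (-0.56), mt-Co3 (-0.69) and mt-Atp6 (-0.35), had negative differences like the nuclear subunits, and each was called higher in AMs when AM library 3 was left out. Glycolytic and hypoxia genes were divided, with 10 of 20 higher in IMs, among them the lactate exporter Slc16a3 (933 against 83.8 CPM), the glucose transporter Slc2a1 (2.12) and Hif1a (1.25), and 4 higher in AMs, among them Aldoa (-1.66) and Ldha (-0.95).

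One lipid gene held a direct repeat of the kind that PPAR-RXR pairs bind in its RefSeq promoter (GRCm38.p6, 250 bases before to 50 after the start). The letters searched were 2 copies of AGGNCA with any 1 base between them, on both strands, found in 0.38% of 32851 promoters. Fabp1 was the only one of 24 lipid genes with a promoter in the table to hold it, 67 bases before the start. None of 11 peroxisomal and none of 17 mitochondrial oxidation and TCA genes held these letters. Fabp1 was at 1.44, 0.734 and 0.596 CPM in IMs and 149, 133 and 156 CPM in AMs. The 200 bases before its start (chr6:71199679-71199878, plus strand) are shown for this match, in capitals.
Fabp1: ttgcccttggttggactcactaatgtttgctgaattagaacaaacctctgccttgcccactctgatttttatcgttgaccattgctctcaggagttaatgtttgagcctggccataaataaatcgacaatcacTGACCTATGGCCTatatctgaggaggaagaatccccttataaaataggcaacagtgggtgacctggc

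Lysosomal genes were also mostly higher in AMs: 24 of 31, with 6 higher in IMs, 1 not called and a median of -1.0. Atp6v0d2, a proton pump subunit, was at 11.9, 10.3 and 7.49 CPM in IMs and 955, 924 and 944 CPM in AMs. Ctsd, the aspartic protease cathepsin D, was at 374, 357 and 365 CPM in IMs and 3320, 3459 and 3324 CPM in AMs; 34.4% of its exon bases overlap Gm49369. Cathepsin K (Ctsk, 14.4 against 532 CPM) and cathepsin S (Ctss, -1.41) were higher in AMs, while cathepsin B (Ctsb) was higher in IMs by 0.15, a call lost without AM library 1 or 2 and with no low-count filter. Lamp2 was at 463 and 472 CPM, with no call. The genes Tfeb (0.22) and Tfe3 (0.35), which encode regulators of lysosomal genes, were slightly higher in IMs (the call for Tfeb was lost without AM library 1 or 3 or IM library 2 or 3, with no low-count filter and with DESeq2), as was the glycosidase gene Gla (1.32).

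The letters TCACGTGA, the core of the element that TFEB-family factors bind, were found in the promoters of 6 of 23 lysosomal genes with one in the table (26.1%) and in 0.97% of all promoters or 2.05% of tested genes. The 6 were Atp6v0d1, Atp6v1a, Ctsa, Ctsd, Gla and Mcoln1. Of these 5 were higher in AMs, by -0.63 to -3.20, and Gla was higher in IMs. The sequence is the same on both strands. The 200 bases before the start of Ctsd (chr7:142387828-142388027, minus strand) and Atp6v1a (chr16:44139260-44139459, minus strand) are shown because these genes differed by unlike amounts, -3.20 and -0.80, with the match at 99 and 132 bases before the start.
Ctsd: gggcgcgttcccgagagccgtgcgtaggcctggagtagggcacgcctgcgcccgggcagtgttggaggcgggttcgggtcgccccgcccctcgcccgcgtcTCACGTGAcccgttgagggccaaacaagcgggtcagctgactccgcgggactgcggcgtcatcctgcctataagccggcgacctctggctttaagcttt
Atp6v1a: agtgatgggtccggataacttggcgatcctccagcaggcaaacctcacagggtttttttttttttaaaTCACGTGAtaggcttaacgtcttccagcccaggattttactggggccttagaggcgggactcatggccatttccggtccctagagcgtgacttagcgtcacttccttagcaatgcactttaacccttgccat

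Genes that mark lipid-associated macrophages in diseased tissue were, after PBS, mostly those of AMs: 14 of 20 were higher in AMs, 5 in IMs and 1 was not called (median -1.21). Gpnmb, a glycoprotein of lysosome-rich cells, was at 13.4, 10.9 and 7.62 CPM in IMs and 319, 319 and 308 CPM in AMs. Lgals3, galectin-3, was at 563 and 1735 CPM, Fabp5 at 39.7 and 135 CPM, the phospholipase family member Pld3 at 62.2 and 1067 CPM, and the fibronectin gene Fn1 at 584 and 1105 CPM. Trem2, the lipid-sensing receptor, differed little (39.2 against 50.4 CPM, -0.36). Higher in IMs were Apoe, the macrophage elastase Mmp12 (2.87), the membrane protease Mmp14 (4.17), the adaptor Tyrobp (0.32) and Ctsb.

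Cell cycle transcripts were higher in AMs in 29 of 30 genes, with a median of -1.34; Aurka was not called (6.30 and 6.25 CPM). Bub1b, a spindle checkpoint kinase, was at 11, 9.05 and 10.7 CPM in IMs and 53.9, 52.7 and 48.5 CPM in AMs. Mki67, which encodes the proliferation antigen Ki-67, was at 79.4, 72.8 and 68.4 CPM in IMs and 112, 118 and 104 CPM in AMs. The groups did not overlap in either gene. In bulk RNA, a larger share of dividing cells and more of these transcripts per cell cannot be told apart, and the same holds for every cell type marker below.

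Type I interferon-stimulated genes were higher in IMs in 19 of 20 cases, none was higher in AMs, and the median was 3.70. Their summed level was 955.4 to 1019 CPM in IMs and 179.0 to 194.9 in AMs. Rsad2, the antiviral enzyme viperin, was at 75.0, 80.5 and 76.5 CPM in IMs and 2.74, 1.88 and 2.47 CPM in AMs, a log2 difference of 5.04 ± 0.107 (adjusted p = 5.76e-18). Isg15, a ubiquitin-like modifier, was at 72.7, 72.3 and 84.4 CPM in IMs and 4.98, 4.0 and 4.5 CPM in AMs. Ifit3, which binds foreign RNA complexes, was at 15 and 1.09 CPM, the 2'-5'-oligoadenylate synthetase genes Oas3 and Oas2 had differences of 4.47 and 4.37, and the GTPase gene Mx1 one of 4.08. The receptor subunit Ifnar1 was higher in IMs too (321 against 77.5 CPM). The signal transducer gene Stat2 had a difference of 0.28, the smallest among the 19 called.

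A pair of GAAA with any 2 bases between them, the core of the interferon-stimulated response element, was found on either strand in the promoters of 9 of 14 of these genes with one in the table (64.3%), against 3.44% of all promoters and 3.91% of tested genes. The 9 were Bst2, Ddx60, Ifit1, Ifit3, Isg15, Oas1a, Oas3, Rsad2 and Stat2, with differences from 0.28 to 5.04, so genes with a match were among the smallest and the largest of the list. The 200 bases before the start are shown for 3 of those with large differences, with matches in capitals. Isg15 (chr4:156200819-156201018, minus strand) has 3 overlapping matches that start 78, 72 and 66 bases before the start. Rsad2 (chr12:26456453-26456652, minus strand) has 1 at 120 bases, and Ifit3 (chr19:34583329-34583528, plus strand) has 2 at 156 and 122 bases.
Isg15: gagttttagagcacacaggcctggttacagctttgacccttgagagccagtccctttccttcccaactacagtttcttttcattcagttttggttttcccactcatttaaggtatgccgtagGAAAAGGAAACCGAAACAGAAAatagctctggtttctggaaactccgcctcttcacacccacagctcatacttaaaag
Rsad2: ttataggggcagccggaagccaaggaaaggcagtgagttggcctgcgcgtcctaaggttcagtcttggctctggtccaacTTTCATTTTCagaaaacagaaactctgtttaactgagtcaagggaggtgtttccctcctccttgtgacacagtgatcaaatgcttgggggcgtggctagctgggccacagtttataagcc
Ifit3: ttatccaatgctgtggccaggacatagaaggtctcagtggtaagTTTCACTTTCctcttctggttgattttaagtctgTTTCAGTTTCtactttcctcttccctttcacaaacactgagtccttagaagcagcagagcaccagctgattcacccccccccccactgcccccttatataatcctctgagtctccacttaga

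Inflammatory and chemotactic genes were mostly higher in IMs. Of 19 inflammatory cytokine and feedback genes, 14 were higher in IMs, 3 in AMs and 2 were not called (median 0.92). Ptgs2, which encodes cyclooxygenase-2, was at 482, 479 and 470 CPM in IMs and 13.3, 12.6 and 16.4 CPM in AMs. Il1b was at 1861 ± 70.9 and 371 ± 25.2 CPM, and the anti-inflammatory Il10 at 35.3 and 2.25 CPM. Il18, which is activated by the same proteolytic step as Il1b, was at 13.7, 11.1 and 17.8 CPM in IMs and 210, 203 and 207 CPM in AMs. Il1a (-1.38) was also higher in AMs, and Il6 was not called (41.2 and 39.5 CPM). Of 22 chemokine genes, 18 were higher in IMs (median 2.76), among them Cxcl2 (2153 against 793 CPM), the monocyte attractants Ccl2 (58.5 against 4.25 CPM) and Ccl7 (4.77), Ccl4 (4.17) and Cxcl16 (3.41). Ccl6 was higher in AMs (932 against 3870 CPM), with Cxcl14 and Cxcl9. Of 19 chemoattractant receptor genes, 16 were higher in IMs, including Ccr2 (3.49) and Cxcr4 (1.58), and 3 in AMs, namely the formyl peptide receptors Fpr1 (-2.87) and Fpr2 (-1.54) and Cxcr1 (-3.01). Early stress genes that tissue dissociation can induce were higher in IMs in 15 of 19 cases (median 0.63; Jun 1.5, Egr1 1.47) and higher in AMs in 4 (Fosb -1.17, Hspa8 -1.57, Hsph1, Egr2). Their part in the inflammatory differences was not tested.

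Receptors for microbes and debris were divided between the sides. Of 22 pattern recognition genes, 12 were higher in IMs and 8 in AMs. Tlr2 (-1.5), Tlr4 (-1.65), Tlr7 (-1.53) and Tlr8 (-2.44) were higher in AMs, while Tlr1 (3.38), Tlr9 (3.04), Tlr13 (1.83), Nod2 (2.07) and the LPS co-receptor Cd14 (1.07) were higher in IMs. Of 29 scavenger receptors and lectins, 14 were higher on each side, with the sorted Siglecf on the AM side. The last 1 was not called, and the median was -0.01. AMs had more Marco, Axl (200 against 1847 CPM), Siglec1 (27.7 against 417 CPM) and Clec4n (-3.04), and IMs more Clec4d (3.23), Clec4e (2.24), Clec4a1 (4.19), Cd209a (3.85) and Msr1 (2.53). Complement genes were higher in IMs in 12 of 15 cases, among them the sorted Itgam (median 3.23). Cfb was the only one higher in AMs, at 1.25 CPM against 1 count in all 3 IM libraries, and 79.5% of its exon bases overlap Gm20547. Of 10 Fc receptor genes, 6 were higher in IMs, led by Fcrls (70.6 against 1.84 CPM), and 3 in AMs, led by the neonatal receptor Fcgrt (75.7 against 390 CPM).

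Of 17 MHC class II presentation and costimulation genes, 12 were higher in IMs, 3 in AMs and 2 were not called, with a median of 0.58. H2-Aa was at 2541 and 1696 CPM, H2-Ab1 at 2677 and 1702, and the invariant chain Cd74 at 5999 and 5114. The peptide-loading genes H2-DMa (-0.94) and H2-DMb1 (-1.04) and Ctss were higher in AMs. Costimulation genes differed more, with Cd40 at 42.0 and 3.95 CPM and Cd86 at 190 and 37.0 CPM. The class II transactivator Ciita was at 49.2 and 48.8 CPM and was not called.

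Matrix, protease and growth factor genes were higher in IMs in 18 of 32 cases, higher in AMs in 11 and not called in 3. Thbs1, thrombospondin-1 (ENSMUSG00000040152), which can activate latent TGF-beta, was at 6584, 7537 and 6840 CPM in IMs and 259, 155 and 367 CPM in AMs (4.75 ± 0.399, adjusted p = 0.000350). Vegfa was at 258, 276 and 275 CPM in IMs and 21.6, 19.2 and 25.5 CPM in AMs. The platelet-derived growth factor genes divided, with Pdgfb (3.18) and Pdgfa (4.47) higher in IMs and Pdgfc (2.92 against 44.9 CPM) higher in AMs. F7, which encodes coagulation factor VII, was at 7.09, 3.79 and 4.37 CPM in IMs and 390, 379 and 379 CPM in AMs. The protease gene Mmp19 was at 67.3 and 1237 CPM (28.3% of its exon bases overlap other genes), and Ereg, a ligand of the epidermal growth factor receptor, at 0.880 and 152 CPM. Of 16 genes of alternative activation and arginine use, 11 were higher in IMs, including Arg2 (3.84) and Retnla (5.07), and 4 in AMs, including the arginine transporter Slc7a2 (10.2 against 450 CPM).

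**Figure D4:**
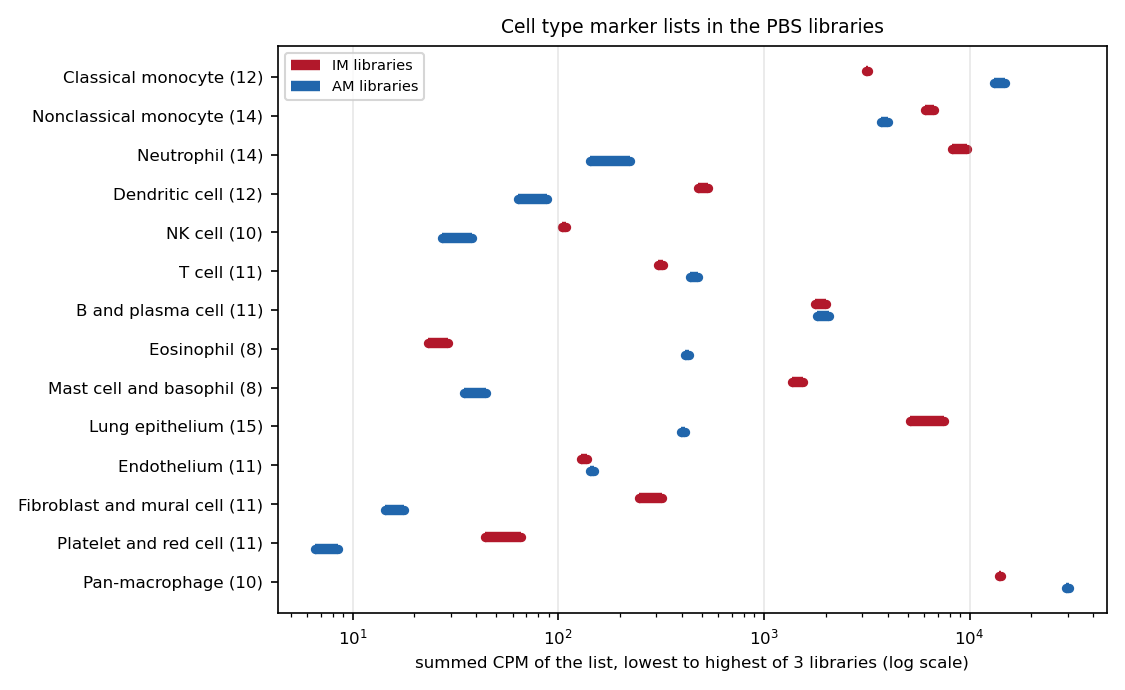
Summed CPM on a log axis of 14 cell type marker lists (genes measured in brackets) in the PBS libraries; each bar runs from the lowest to the highest of the 3 IM (red) or 3 AM (blue) libraries. Neutrophil genes sum to between 8225 and 9723 CPM in IMs and between 142.8 and 223.3 in AMs, and lung epithelial genes to between 5118 and 7474 and between 397.4 and 411.2.

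Markers of other cells moved with the groups. All 14 neutrophil genes were higher in IMs (median 6.07), and none was at 0 in the IM libraries: the defining Ly6g was at 12.1 CPM in IMs and 0.157 in AMs, and Csf3r at 1478 ± 92.3 and 53.6 ± 7.86. Of 15 lung epithelial genes, 14 were higher in IMs. The surfactant gene Sftpc of type II cells was at 1473, 1252 and 1358 CPM in IMs and 51.4, 59.3 and 59.6 CPM in AMs, and the club cell gene Scgb1a1 at 4101, 2392 and 2978 CPM and 61.0, 45.9 and 49.6 CPM. The exception, Epcam, is itself carried by AMs (6.81 against 182 CPM). On the scale of the total count, Sftpc was between 1.43 and 21.6 CPM in the means of the 6 bleomycin groups, so the PBS IM libraries stood apart in it.

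Monocyte and lymphocyte genes were also present in the CD11b+ gate. Nonclassical monocyte genes were higher in IMs in 11 of 14 cases, with Ace, the angiotensin-converting enzyme, at 1120, 1309 and 1170 CPM in IMs and 107, 104 and 117 CPM in AMs, Treml4 at 191 and 35.0 CPM and Spn (CD43) at 394 and 82.0 CPM. Classical monocyte genes were higher in 9 of 12 cases, with Ly6c2 at 136 and 15.7 CPM, but the list's sum was larger in AMs (13190 to 14850 against 3124 to 3223 CPM) because it holds Chil3. All 7 mast cell and basophil genes, all 9 natural killer cell genes, all 11 fibroblast and mural genes and all 6 platelet and red cell genes tested were higher in IMs, as were 11 of 12 dendritic cell, 10 of 11 T cell and 8 of 10 endothelial genes. Yet the summed level was larger in AMs for the T cell list (438.2 to 478.6 against 304.4 to 322.7 CPM). That excess came from the 1 member higher in AMs (-2.62). The endothelial sum was larger in AMs too (142.2 to 148.7 against 129.2 to 138.0 CPM), through the 2 members higher there. Of the 6 eosinophil genes tested, 3 were higher on each side, with the sorted Siglecf on the AM side. The part of these cells in the IM differences above was not tested. Genes that stand in both a marker list and a list above include Csf3r, Ccr2, Cxcr2, Mmp8, Mmp9, Cd209a, Col1a1 and Pf4.

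Among B and plasma cell genes, Cd79a (171 against 33.9 CPM), Ms4a1 (131 against 16.8 CPM) and 6 others were higher in IMs, though Ighm by 0.19 only, a call lost without AM library 1 or 2 or IM library 2 or 3, with no low-count filter and with all 15 libraries in 1 fit. The antibody genes Igkc and Jchain, which encode the kappa constant region and the joining chain, were higher in AMs. Jchain was at 18.5, 13.9 and 14.4 CPM in IMs and 238, 226 and 247 CPM in AMs, and Igkc at 233, 224 and 227 CPM and 788, 753 and 855 CPM. The plasma cell gene Mzb1 was not called (8.85 ± 0.329 and 10.01 ± 0.306 CPM). Antibody heavy chains outside the list, looked at after these values were seen, showed the same direction: Igha was at 56.8 ± 10.1 CPM in IMs and 685 ± 34.7 in AMs, and Ighg2b at 3.16 ± 1.08 and 132 ± 4.77.

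The gate comparison at day 14 after bleomycin held genotype and EGFP sort constant, and shared no library with the PBS comparison. Of 13793 genes tested there, 2863 (20.8%) were called, 10.7% higher in IMs (1469) and 10.1% in AMs (1394). With total counts as the only scaling the split was 1129 and 1805. With the replicate number as a block, it was 1862 and 1823. The day 14 values, list counts and overlaps that follow are from the fit without the block. Blocked list counts stand beside those they change, and blocked overlaps are given in the last section. Of the genes tested in both comparisons (13277), 4533 were higher in IMs and 5964 in AMs after PBS, so shared calls must be read beside these shares. At day 14, 1409 of them were higher in IMs and 1365 in AMs. Among the shared genes, 1016 were higher in IMs in both, which is 22.4% of those higher in IMs after PBS and 72.1% of those higher in IMs at day 14. A further 1053 were higher in AMs in both, 17.7% of the PBS and 77.1% of the day 14 calls. The direction was opposite in 189 genes higher in IMs after PBS and 268 higher in AMs after PBS. Libraries of a group lay farther apart at day 14 (chi-square per degree of freedom 12.62 to 117.1, against 3.776 to 6.949 after PBS), and in simulated data fewer genes changed 1.5-fold were recovered (16.4% against 79.1%), so the numbers of calls cannot be set against each other. Without day 14 IM library 2, AM library 2 or AM library 3, the number higher in AMs fell to 907, 875 and 911.

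**Figure D5:**
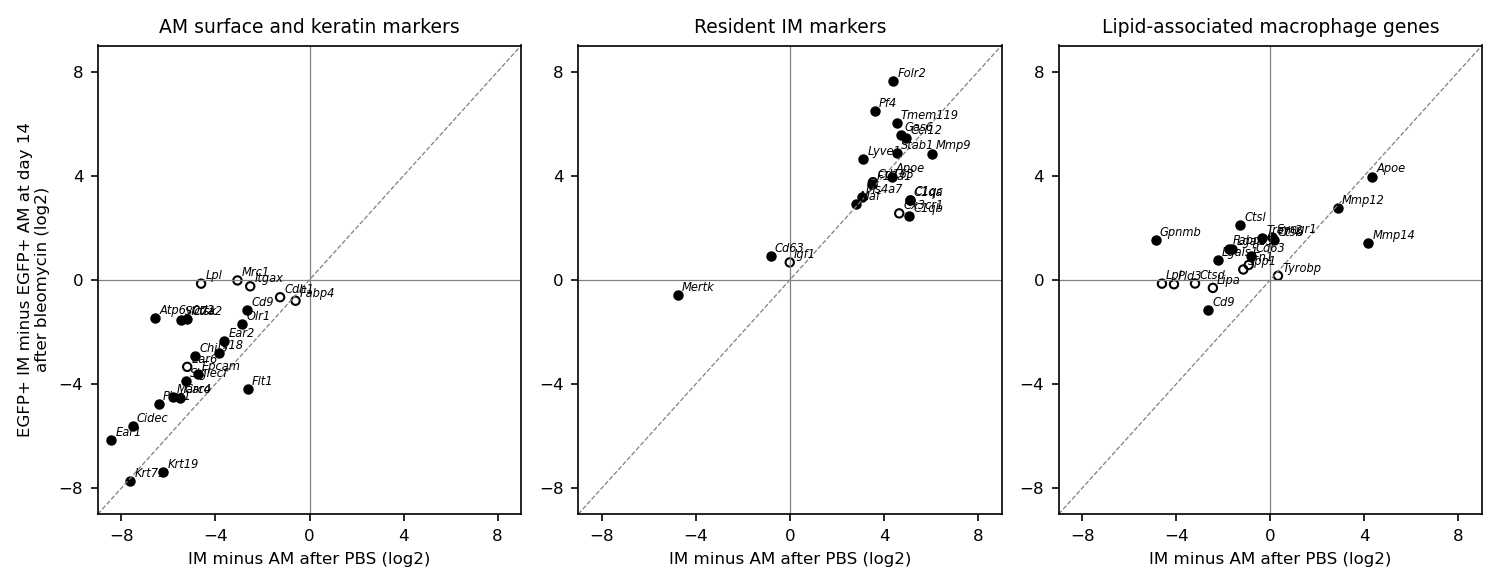
log2 difference, IM minus AM, after PBS (x axis) and between EGFP+ cells at day 14 after bleomycin (y axis) for members of 3 lists tested in both; filled points were called at day 14, open points were not, and the dashed line marks equal differences; 1 IM marker is not drawn. AM markers lie in the lower left, IM markers apart from Mertk, Cd63 and Igf1 in the upper right, and 9 of the 14 lipid-associated genes higher in AMs after PBS lie above 0 at day 14.

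Most identity genes differed the same way between the gates at day 14. Of 24 AM surface and keratin markers tested, 18 were higher in AMs and none in IMs (median -2.87), including Krt79 (-7.72), Car4 (-4.53) and Marco (-4.52). With the replicate block 21 were higher in AMs. Siglecf is in this list, and its direction was set by the sort. Lpl (-0.15, adjusted p = 0.645), Itgax (-0.25, adjusted p = 0.684) and Mrc1 (-0.02, adjusted p = 0.978) were not called at day 14. Of 21 resident IM markers, 17 were higher in IMs (median 3.68), or 18 with the replicate block. Folr2 was at 7.64, C1qa at 3.07 and Apoe at 3.97, while Mertk was still higher in AMs (-0.58, adjusted p = 0.0360). Cell cycle genes were higher in AMs in 24 of 30 cases, or 25 with the replicate block, and in IMs in none (median -0.90). Thbs1 (3.85), Vegfa (2.26), Pparg (-2.20) and Fabp1 (-5.26) had the same direction as after PBS, each called.

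Of the 25 respiratory chain genes, none was called higher in AMs at day 14 and 2 were called higher in IMs (median 0.10); with the replicate block Ndufa4 was called higher in AMs. Of 31 lysosomal genes 9 were higher in IMs and 2 in AMs (median 0.26), or 11 and 3 with the replicate block. Interferon-stimulated genes were called in 5 of 20 cases, all higher in IMs (median 0.47), with Isg15 at 0.65 (adjusted p = 0.288); with the replicate block 8 were higher in IMs and 1, Stat2, in AMs. Of the 20 lipid-associated macrophage genes, 12 were higher in IMs at day 14 and 1 in AMs, with a median of 1.05 against -1.21 after PBS. With the replicate block the counts were 11 and 1. Gpnmb had a difference of 1.54, Lgals3 of 1.19, Fabp5 of 1.20, Trem2 of 1.59 and Ctsl of 2.09.

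The difference between the PBS and the day 14 gate comparisons was then tested in 1 fit over the 12 libraries with no replicate block, a test added after these values were seen. It called 7482 of 15981 genes (46.8%). Table and treatment coincide in this contrast. Any difference in the annotation used for counting, the genotype and the EGFP sort of the PBS IMs, and treatment therefore cannot be told apart. Gpnmb differed by -6.38 (adjusted p = 6.8e-08), Tfec by -4.38, Lpl by -4.42, Mertk by -4.15 and Isg15 by 3.48 (adjusted p = 7.7e-05). Krt79 (0.16, adjusted p = 0.79), Apoe (0.39, adjusted p = 0.35) and Thbs1 (0.94, adjusted p = 0.13) were not called, which does not show that their gate differences were equal.

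The levels of some of these genes in the 8 groups were as follows. On the scale of the total count, Gpnmb had 1038 CPM in wild-type IMs at day 7 after bleomycin, 443 in EGFP- and 1137 in EGFP+ reporter IMs at day 7, 955 in EGFP+ IMs at day 14, and 360 and 1046 in EGFP+ AMs at days 14 and 30, beside 7.59 to 13.47 CPM in the PBS IM and 307.2 to 318.3 CPM in the PBS AM libraries. Every bleomycin IM group was thus above the PBS IMs, while the AM groups lay nearer each other. The means of the 4 bleomycin IM groups were also above the PBS IMs for Lpl (606 to 3046 CPM), Ctsd (796.5 to 4136 CPM) and Tfec (37.2 to 97.6 CPM). For Cd36, it was the AM level that was low at day 14, at 48.6 CPM, against 459 in the IMs of that day. For Isg15, the IM groups were at 23.1 to 176 CPM and the AMs at days 14 and 30 at 16.4 and 11.5 CPM. These cross-group levels carry no test, and those at days 14 and 30 come from the other table.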

How the data were processed

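PolyA RNA of sorted lung macrophages was sequenced as paired-end reads, per the series text. Per the submitters' processing notes, FastQC 0.11.5, Trimmomatic 0.38, HISAT2 2.1.0, SAMtools and featureCounts 1.6.3 were used on GRCm38. The annotation release and strand setting are not given in the sources used here, so reads of overlapping genes cannot be assigned with certainty. The authors deposited raw counts per gene in 2 tables; 3 columns that match no sample were not used. The PBS comparison used 6 libraries of the table with 49585 genes and 15 mapped libraries, and day 14 used 6 of the other (55487 genes, 9 libraries).

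Genes passing filterByExpr were tested with edgeR 4.0.16 (R 4.3.3): TMM factors, a robust fit and the 2-sided quasi-likelihood test, with group in the model and no covariate. Calls were made at 0.05 after Benjamini-Hochberg adjustment across every tested gene. The SE is the absolute log2 difference over the square root of F. The members, gene lists and naming rule were chosen with earlier results of these data known. The rule took the sort genes, the 15 largest called differences each way at 50 CPM or more without overlap (predicted genes, pseudogenes and antibody segments left out), the 3 most abundant called members of each list each way, and uncalled members where a list had 5 or fewer; other genes named were chosen after their values were seen. On simulated data with the PBS libraries' means (15633 genes) the test recovered 79.1% of genes changed 1.5-fold, 94.0% at 2-fold and 98.5% at 4-fold, and called 0.177% of unchanged genes; for day 14 (13538 genes) it recovered 16.4%, 68.7% and 93.9%. Each simulation changed 67, 67 and 66 genes at these folds, none of them of low count, and left the rest unchanged. In the PBS data 78.9% of tested genes were called, so these rates may not hold there. Within groups, libraries differed by more than sampling noise (chi-square per degree of freedom 3.776 to 6.949 after PBS). At day 14, deviations of libraries with the same number correlated at 0.236, 0.144 and 0.197, so the numbers were treated as pairs there in a fit with the replicate block. Promoters are RefSeq's, and exon overlaps come from GENCODE M21. DESeq2 1.42.0, other scalings and filters, all 15 libraries in 1 fit, a replicate block and leaving out each library were the alternatives. A few genes of the lists are not reported here by name.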

Additional observations from a re-analysis of the deposited data

Results flagged for a closer look

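The IM minus AM difference after PBS and that at day 14 after bleomycin were both called with opposite sign, and their difference was called in 1 fit, for the genes below. The values are the log2 difference after PBS minus that at day 14. The same limit holds for each, since the table, the day and treatment coincide in this contrast. The genotype and EGFP sort of the PBS IMs and the sex composition of the PBS groups differ with them. None of these can be told apart.

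Among genes of lipid-associated macrophages, higher in AMs after PBS and in IMs at day 14, the values were -6.38 for Gpnmb, -3.33 for the cathepsin L gene Ctsl, -2.92 for Fabp5, -2.78 for Lgals3, -1.91 for Trem2 and -1.68 for Cd63. The Fc receptor genes Fcgr1 (-1.48) and Fcgr3 (-1.35) and the protease gene Mmp19 (-5.03) had the same order. Antibody genes did too, with -4.69 for Igkc, -6.47 for Jchain, -6.55 for Igha and -7.40 for Ighg2b.

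The opposite order, higher in IMs after PBS and in AMs at day 14, was found for Ace (5.01) and Treml4 (4.11), both of nonclassical monocytes, for the activating Fc receptor gene Fcgr4 (1.35) and for the glutathione reductase gene Gsr (2.78).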

How the results depend on the processing

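The counts of genes called after PBS stayed within 1.5 times of those reported under every alternative run, at 5798 to 7003 higher in IMs and 5875 to 6959 higher in AMs. Leaving out 1 library gave 6090 to 6305 and 6150 to 6417, and at least 2-fold differences 3879 to 4083 and 2917 to 3069. The replicate block gave 6249 and 6348 after PBS, where deviations of same-numbered libraries correlated at 0.0259, 0.0353 and 0.0493, so the numbers were not taken as pairs. At day 14, leaving out 1 library gave 982 to 1826 genes higher in IMs and 875 to 1548 higher in AMs; the second count was 907 without IM library 2, 875 without AM library 2 and 911 without AM library 3. Of 351 named genes, 313 kept direction and call under all alternatives run for them. All genes whose sign changed were uncalled in the reported fit, and the cause was not tested. The log2 differences with the changed sign were, with RLE size factors, Igf1 0.01, Cd36 0.01, Mvk 0.02 and Ticam1 0.01. With upper quartile factors they were Igf1 0.08, Bhlhe40 0.06, Icam1 0.06, Cd36 0.08, Mvk 0.09, Ticam1 0.08 and Lamp2 0.06, and with total counts only Mvk 0.0027. With a stricter low-count filter they were Igf1 0.02, Cd36 0.02, Mvk 0.02 and Ticam1 0.01. With no filter they were Tgfb1 -0.04, Selplg -0.03, Abca1 -0.05, Insig1 -0.03, Ciita -0.07, Il6 -0.02, Tgm2 -0.02, Srxn1 -0.05 and Aurka -0.07. With all 15 libraries in 1 fit they were Abca1 -0.0017, Ciita -0.02, Srxn1 -0.0025 and Aurka -0.01, and with DESeq2 Ciita -0.01 and Aurka -0.01. Leaving out 1 library gave ranges of -0.29 to 0.11 for Igf1, -0.02 to 0.07 for Tgfb1, -0.01 to 0.07 for Selplg, -0.09 to 0.18 for Cxcl1, -0.09 to 0.1 for Abca1, -0.0038 to 0.07 for Insig1, -0.33 to 0.01 for C2, -0.11 to 0.03 for Ticam1, -0.05 to 0.04 for Ciita, -0.05 to 0.13 for Il6, -0.37 to 0.42 for Syngr1, -0.01 to 0.03 for Srxn1 and -0.14 to 0.12 for Aurka. Of mitochondrial genes uncalled in the reported fit, mt-Co3 was called higher in AMs with DESeq2 (-0.70), no filter (-0.77), all 15 libraries (-0.71) and without AM library 3 (-0.99), mt-Atp6 with no filter (-0.43) and without AM library 3 (-0.55), and mt-Co2 without AM library 3 (-0.90). With the replicate block at day 14, 1239 genes were higher in IMs in both comparisons and 1336 in AMs in both, the direction was opposite in 275 and 368, and the block changed no call of a gene given with its own day 14 value. With 3 libraries a side, 1.5-fold differences were often below what the day 14 fit could call.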
